A study of Homo sapiens with 4 samples.

Results

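The regions described here were CUT&RUN peaks of BRG1 that lay in the 3' untranslated regions (3' UTRs) of protein-coding genes. A peak was taken when it overlapped a 3' UTR of any protein-coding transcript of GENCODE release 44 (mapped to GRCh37, the assembly also called hg19) by at least 1 bp and kept more than 1 kb from every annotated transcript start of any gene. No score, motif or overlap between constructs was used in this choice. The rule found 550 of the 24212 peaks deposited for iBRG1 and 566 of the 25371 deposited for i∆HSA, which together made 1116 of 49583 peaks. A score of at least 5, the minimum named in the study's methods, was reached by 152 of the iBRG1 and 194 of the i∆HSA members. The members with lower scores were kept.

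The cells were SW-13, an adrenocortical carcinoma line that lacks both SWI/SNF ATPases, BRG1 and BRM. A stable line carried an inducible, V5-tagged construct of wild-type BRG1 (iBRG1), and the other carried BRG1 without its HSA domain (i∆HSA), which the sample names give as HSA-V5 and the study's methods as the deletion. Every sample came from 300000 cells given doxycycline for 24 h, with 2 replicates for each construct, and DNA next to the tagged protein was released by micrococcal nuclease that was brought to an antibody against V5. Each construct had 1 deposited peak list, so no value below carries a replicate error, and the tests compare these 2 lists and not cultures. Both proteins were expressed from a transgene, and the samples without doxycycline or with a control antibody were not analysed here. The lists give positions and a whole-number score without read counts, so the depth behind a peak is unknown. The scale of the score is not given in the sources used here. Scores were therefore ranked within a list, and scores of the 2 lists set side by side do not measure a change in binding.

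BRG1 is the motor of the SWI/SNF complex, which slides and evicts nucleosomes, and its HSA domain is the surface on which actin-related proteins and other accessory subunits dock. The 3' UTR is the stretch of an mRNA between the stop codon and the poly(A) tail, where microRNAs and proteins that bind AU-rich elements act on the message. It ends downstream of a poly(A) signal, most often the hexamer AATAAA in DNA letters, at which the cleavage machinery cuts the transcript. The same DNA can also hold sites of transcription factors such as AP-1, the FOS and JUN dimers that bind TGACTCA or its reverse complement TGAGTCA and that are known to work with SWI/SNF at enhancers.

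The sequences with the AP-1 letters are shown because that pattern, like the poly(A) signal, was more frequent at the centre of 3' UTR peaks than in their flanks in both lists, as described below. They are taken from the higher-scoring peaks of each list whose AP-1 pattern lay in the 3' UTR within 100 bp of the midpoint. Each is given 5' to 3' on the plus strand of GRCh37, with TGACTCA or TGAGTCA in capitals. The iBRG1 examples came from STXBP4 (chr17:53239707-53239736), TATDN3 (chr1:212990079-212990108), MED12L (chr3:151152106-151152135), CLEC12B (chr12:10169635-10169664) and LIMS1 (chr2:109278826-109278855). The peaks of STXBP4, TATDN3 and LIMS1 also overlapped a peak of the i∆HSA list, and those of MED12L and CLEC12B did not.
STXBP4: gaagtcttcatTGACTCActggcttggatt
TATDN3: gaggtatttaaTGACTCAtcagcaccattt
MED12L: attgcaaagttTGACTCAtgcaaatgacct
CLEC12B: tgcttcagctgTGACTCAgcagttccttaa
LIMS1: agaataaagtgTGACTCAtctcgtcctgcc

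The i∆HSA examples came from HACD3 (chr15:65869131-65869160), TTC19 (chr17:15931572-15931601), TMEM14B (chr6:10759706-10759735) and LPP (chr3:188599247-188599276). The peaks of HACD3, TTC19 and LPP also overlapped a peak of the iBRG1 list, and that of TMEM14B did not.
HACD3: ggctgttaaagTGACTCAggcaggaattaa
TTC19: agtcacacaacTGAGTCAtctcaagtactc
TMEM14B: ttcctaaatgcTGAGTCAgagcatctcagc
LPP: gcagttcaccaTGAGTCAggctaggttgaa

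The sequences with a poly(A) signal are shown because, in 4 of the 10 strongest pairs of overlapping peaks, both peaks reached over the end of the canonical transcript. They are written 5' to 3' on the gene's strand, with AATAAA in capitals, and come from SCD (chr10:102124550-102124579, plus strand), CHCHD3 (chr7:132469635-132469664, minus strand), ZNF512 (chr2:27846043-27846072, plus strand) and UBR2 (chr6:42661206-42661235, plus strand). The signal began 16 bp before the annotated end in SCD and CHCHD3, 24 bp before it in ZNF512 and 20 bp before it in UBR2.
SCD: gtgtttgttcatAATAAAagtgaagtgaat
CHCHD3: ctcactatcaatAATAAAtatattttctga
ZNF512: gggtgagtttgaAATAAAttccacatgcag
UBR2: taaagatatccaAATAAAtgctttaggtgt

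The 3' UTR class took up the same small part of both lists. It held 2.27% of the iBRG1 peaks (95% Wilson interval 2.09 to 2.47) and 2.23% of the i∆HSA peaks (2.06 to 2.42). The odds ratio of i∆HSA against iBRG1 was 0.982 (exact 95% interval 0.870 to 1.11, two-sided Fisher's exact test p = 0.762), so the lists did not differ beyond counting error. Among peaks with a score of at least 5, the minimum that the study's methods name, the classes were 152 of 6575 and 194 of 10440 peaks, and the odds ratio was 0.800 (Fisher's exact test p = 0.0446). All intervals here cover counting error only.

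Measured per length of genome, 3' UTRs were about as densely occupied as introns. Over sequence more than 1 kb from every start, iBRG1 had 10.4 peak midpoints per Mb of 3' UTR (exact Poisson 95% interval 9.36 to 11.5), against 9.52 in introns, 7.70 in coding exons and 6.60 between genes. For i∆HSA the densities were 10.2 (9.22 to 11.3), 9.33, 6.13 and 7.14 per Mb in the same order. The 3' UTR interval reached down to the intron density in both lists and stayed above the intergenic density.

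Most of these peaks had low scores, as did the lists as a whole, with medians over all peaks of 2 in iBRG1 and 4 in i∆HSA. The iBRG1 peaks had a median score of 2 (quartiles 1 and 5) and a median width of 1507 bp (289 to 7900), against 1321 bp over all iBRG1 peaks. The i∆HSA peaks had a median score of 3 (quartiles 2 and 5.75) and a median width of 1353 bp (266 to 5282), against 1318 bp over all i∆HSA peaks. Very AT-rich peaks were rare, since 2 of the iBRG1 (0.364%) and 5 of the i∆HSA peaks (0.883%) had under 25% GC. Over all peaks the shares were 0.888% in iBRG1 and 4.64% in i∆HSA. The median GC content was 38.4% and 37.5%.

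Most peaks touched the 3' UTR of the transcript tagged as canonical for its gene, 417 of 550 (75.8%) in iBRG1 and 453 of 566 (80.04%) in i∆HSA. The rest fell in the 3' UTR of a minor transcript, which can lie in an intron or an internal exon of the main one. A peak was usually wider than the piece of 3' UTR it met. Peaks lying wholly in a 3' UTR numbered 188 (34.2%) in iBRG1 and 175 (30.9%) in i∆HSA, and 234 and 223 also overlapped coding sequence. At the other end, 77 and 70 peaks had under 10% of their width in a 3' UTR.

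The place along the 3' UTR was spread from the coding end to the transcript end. With the 3' UTR cut into 5 equal stretches, the 331 iBRG1 peaks whose midpoint lay in the assigned 3' UTR fell 52, 70, 63, 76 and 70 to a stretch. The 325 i∆HSA peaks fell 53, 59, 68, 58 and 87. The highest count for i∆HSA was thus in the last stretch, with 26.8% of the midpoints (22.2 to 31.8), and for iBRG1 the same stretch held 21.1% (17.1 to 25.9).

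The transcript end lay inside 225 of the iBRG1 peaks (40.9%, 36.9 to 45.1) and 276 of the i∆HSA peaks (48.8%, 44.7 to 52.9). The end of the coding sequence lay inside 221 (40.2%, 36.2 to 44.3) and 189 (33.4%, 29.6 to 37.4). So the transcript end was covered more often in i∆HSA than in iBRG1, and the coding end less often. Within iBRG1 both boundaries were covered about equally often, and within i∆HSA the transcript end more often. This difference was noticed in the data and is given as a description, with no test. Of the transcript ends covered, 152 of 225 (67.6%) in iBRG1 and 165 of 276 (59.8%) in i∆HSA had AATAAA in their last 40 bases, as in SCD and UBR2 above. Among canonical transcripts alone the shares were 99 of 137 (72.3%, 64.2 to 79.1) in iBRG1 and 110 of 173 (63.6%, 56.2 to 70.4) in i∆HSA. Over all 19444 canonical transcripts with a 3' UTR the share was 63.1%, just below the iBRG1 interval and inside the i∆HSA one.

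**Figure D1:**
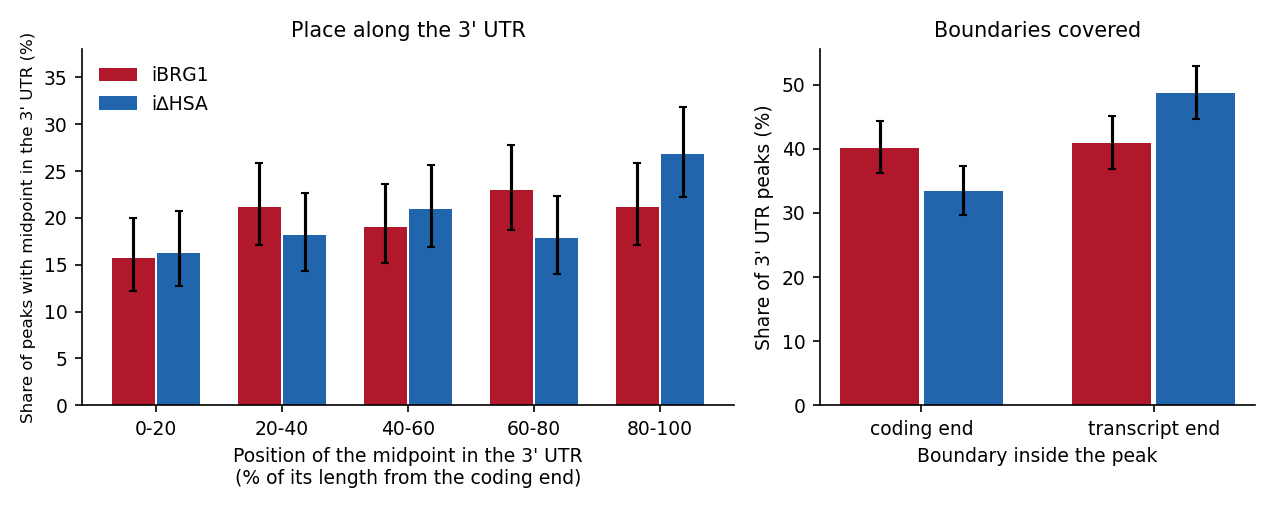
Place of the 3' UTR peaks of iBRG1 (red) and i∆HSA (blue). Left, the share of peaks with their midpoint in each of 5 equal stretches of the 3' UTR (331 and 325 peaks); right, the share of all 550 and 566 peaks that cover the end of the coding sequence or the end of the transcript. Bars are shares in percent and lines are 95% Wilson intervals; the tallest bar on the left is i∆HSA in the last stretch, at 26.8%.

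Sharing between the lists asks whether wild-type BRG1 and the HSA deletion were found at the same 3' UTRs. A peak counted as shared when at least 1 bp overlapped a peak of the other list. In iBRG1, 111 of 550 peaks were shared (20.2%, 17.04 to 23.7), and in i∆HSA 112 of 566 (19.8%, 16.7 to 23.3). For 99 peaks of each list the partner was a 3' UTR peak too, and the other partners were placed in another class.

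Sharing did not set 3' UTR peaks apart from other peaks away from starts. In iBRG1, 19.5% of coding-exon, 18.9% of intronic and 17.2% of intergenic peaks were shared, and in i∆HSA 21.5%, 19.4% and 15.9%. None of the 6 comparisons passed a Benjamini-Hochberg adjusted p of 0.05 in Fisher's exact tests, and 1 had an unadjusted p under 0.05. That one set i∆HSA 3' UTR peaks against intergenic peaks, with an odds ratio of 1.30 (exact interval 1.04 to 1.62, adjusted p = 0.112). Against introns the odds ratios were 1.09 (0.868 to 1.35) in iBRG1 and 1.02 (0.818 to 1.27) in i∆HSA. These intervals leave room for moderate differences in either direction.

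Shared peaks had higher scores and were wider. Of the iBRG1 peaks with a score up to 2, 9.39% were shared, and the share was 21.5% at scores of 3 to 4, 26.6% at 5 to 9 and 58.6% (45.8 to 70.4) at 10 or more. In i∆HSA the same steps gave 8.67%, 13.1%, 23.4% and 62.1% (50.06 to 72.9). The rise with score was not particular to 3' UTR peaks, since coding-exon, intronic and intergenic peaks showed it too. From the lowest to the highest step, the share in introns rose from 7.72% to 58.6% in iBRG1 and from 5.45% to 53.9% in i∆HSA. The median width was 2092 bp for shared and 1343 bp for unshared iBRG1 peaks, and 1815.5 against 1169.5 bp in i∆HSA. A wider peak has more room to overlap, and the part of width in the sharing was not tested.

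The share of peaks with a score of at least 5 was 27.6% in iBRG1 and 34.3% in i∆HSA. In iBRG1 the same share was 27.6% in coding exons, 28.4% in introns and 23.0% between genes, and in i∆HSA 38.3%, 38.1% and 38.7%. None of the 6 comparisons passed in Fisher's exact tests with Benjamini-Hochberg adjustment, and 2 had an unadjusted p under 0.05. Those 2 were against intergenic peaks and went in opposite directions, with odds ratios of 1.28 (1.05 to 1.56, adjusted p = 0.0760) in iBRG1 and 0.825 (0.686 to 0.988, adjusted p = 0.0998) in i∆HSA by the exact test. The count depended on the placing of a peak and on the cutoff. With the midpoint required in a 3' UTR, 3 of 6 passed, all of them i∆HSA peaks with a lower share, with odds ratios of 0.703 against coding exons, 0.713 against introns and 0.694 against intergenic peaks (exact test, adjusted p = 0.0202, 0.0158 and 0.0158). With a cutoff of 10, 2 of 6 passed, again i∆HSA peaks with a lower share, at 0.660 against introns and 0.595 against intergenic peaks (exact test, adjusted p = 0.00443 and 0.000276). With canonical transcripts 1 of 6 passed, iBRG1 peaks with a higher share than intergenic ones (1.40, exact test, adjusted p = 0.0150).

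**Figure D2:**
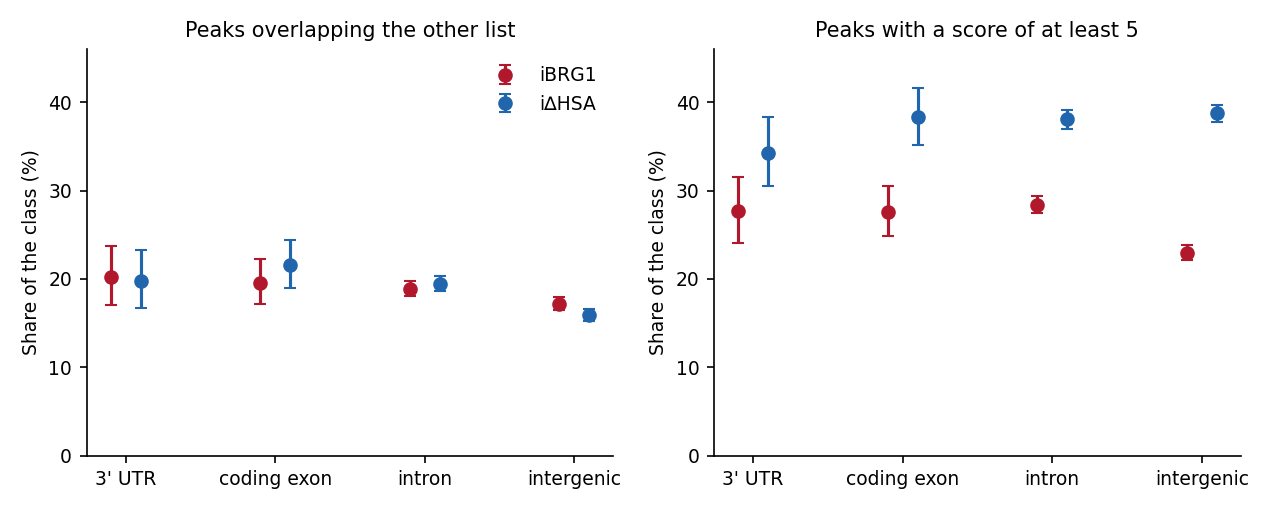
Share of peaks, in percent, that overlap the other list (left) and that have a score of at least 5 (right), for 3' UTR, coding-exon, intronic and intergenic peaks more than 1 kb from every start. Points are iBRG1 (red) and i∆HSA (blue) with 95% Wilson intervals; the 3' UTR points on the left, at 20.2% and 19.8%, lie within the range of the other classes' intervals.

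The strongest 3' UTR peaks of iBRG1 were led by DYM, a Golgi-associated protein, at chr18:46847335-46849313 with a score of 77. This peak also covered coding sequence, and its 3' UTR was the 203 bp one of a minor transcript. ATF6, a transcription factor of the endoplasmic reticulum stress response, had a peak with a score of 40 at chr1:161931553-161932803, wholly in a 3' UTR of 5419 bp. LPP, a LIM protein of focal adhesions, had a score of 34 at chr3:188598822-188600436, wholly in a 3' UTR of 16196 bp. These peaks were all shared with i∆HSA, where the ATF6 partner had a score of 5.

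STXBP4, a syntaxin-binding protein, followed with a score of 31 at chr17:53238796-53240709, and ANKRD44, an ankyrin-repeat regulatory subunit of protein phosphatase 6, with 30 at chr2:197851902-197853381. PHAX, the adaptor for export of small nuclear RNA, had a score of 24 at chr5:125958301-125960875, and ZC3H14, a zinc finger protein that binds poly(A), had 23 at chr14:89078907-89081801. The ZC3H14 peak also lay in a 3' UTR of EML5, and DNA fragments do not say which gene they belong to. The remaining 3 of the 10 highest had no partner in i∆HSA. They were CPSF2, a subunit of the cleavage and polyadenylation specificity factor (score 27, chr14:92626283-92628363), GOLGA7, a palmitoyltransferase partner (score 26, chr8:41365189-41367677), and TACR1, the substance P receptor (score 23, chr2:75274159-75275472).

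Among the strongest i∆HSA peaks, one with a score of 59 at chr16:15684565-15685204, met the 3' UTR of a minor BMERB1 transcript by 15 bp and was otherwise outside it. ANKRD44 followed with 56 at chr2:197851491-197853630, wholly in the 3' UTR. CD3G, the gamma chain of the T cell receptor's CD3 complex, had 53 at chr11:118225632-118226842, a peak that reached past the transcript end and had no iBRG1 partner. HACD3, an enzyme of very long chain fatty acid synthesis, had 47 at chr15:65868549-65869598. PRDM9, the meiotic histone methyltransferase, had 39 at chr5:23526586-23528174, where 295 of 1589 bp were 3' UTR, and no partner either.

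A further 4 of the 10 highest i∆HSA peaks were all shared. ZNF655 had a score of 39 at chr7:99160091-99161684, with 5 bp in a 3' UTR. ZNF512 had 38 at chr2:27844609-27846685, TTC19, an assembly factor of respiratory complex III, had 35 at chr17:15930606-15932390, and PHAX had 33 at chr5:125959285-125960792. So ANKRD44 and PHAX were the genes found among the 10 highest of both lists, while BMERB1 and ZNF655 stood in the class through a few bases. The TTC19 peak also lay in a 3' UTR of NCOR1.

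Pairs of 3' UTR peaks that overlapped each other numbered 99. Their midpoints were a median of 396 bp apart (quartiles 163 and 685.5). The higher score was in i∆HSA for 60 pairs and in iBRG1 for 33, and 6 had the same score in both lists. Scores were also higher in i∆HSA over all peaks of the lists, with a median of 4 against 2 in iBRG1. The count is thus not particular to 3' UTR pairs. Both scores were at least 5 in 43 pairs and at least 10 in 16. Spearman's rho between the scores was 0.395 over the 99 pairs, given as a description of peaks that share their libraries.

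Ranked by the lower of their scores, given as iBRG1 and then i∆HSA, the leading pair was ANKRD44 with 30 and 56. PHAX had 24 and 33, and SCD, the stearoyl-CoA desaturase that makes monounsaturated fatty acids, had 21 and 23. DYM had 77 and 18, ZNF512 18 and 38, and CHCHD3, a subunit of the mitochondrial MICOS complex, 20 and 17. LPP had 34 and 15, ZC3H14 23 and 13, UBR2, an E3 ubiquitin ligase of the N-degron pathway, 13 and 27, and STXBP4 31 and 12. Which list had the higher score thus varied from gene to gene, 5 to each among these 10.

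**Figure D3:**
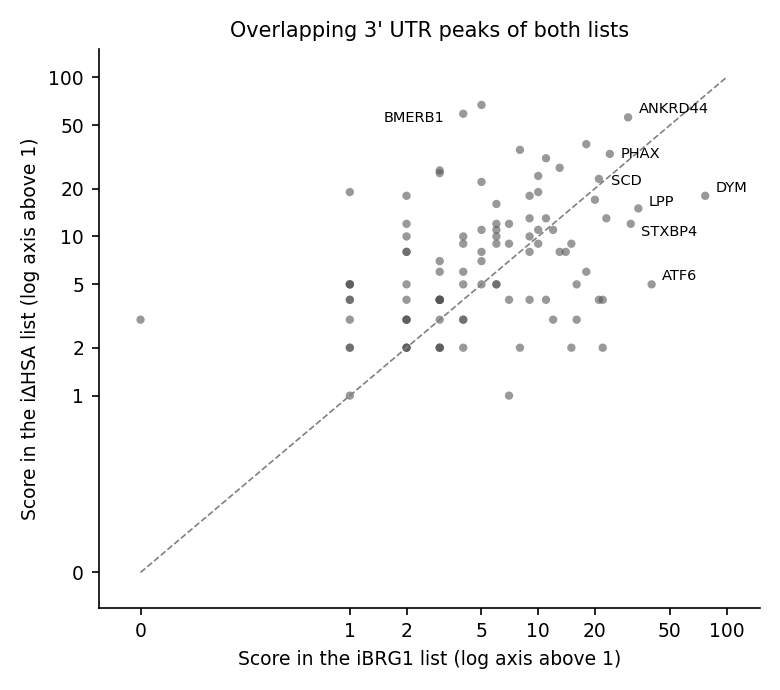
Scores of the 99 pairs of overlapping 3' UTR peaks, iBRG1 on the x axis and i∆HSA on the y axis, as deposited and without a unit; both axes are logarithmic above 1 and linear below it. Each point is a pair and the dashed line marks equal scores; BMERB1 (4 and 59) lies far above it, and DYM (77 and 18) and ATF6 (40 and 5) below it.

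The layout differed among these genes. In ANKRD44 both peaks sat inside the 3' UTR, from 937 to 2416 bp past the coding end in iBRG1 and from 688 to 2827 bp in i∆HSA, with the 3' UTR ending at 2932 bp. In SCD, with a 3' UTR of 3896 bp, the iBRG1 peak ran from 3336 to 5250 bp and the i∆HSA peak from 2588 to 4670 bp, so both crossed the transcript end and its poly(A) signal. In PHAX both peaks lay mostly upstream of the coding end and met 342 and 259 bp of the 3' UTR.

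**Figure D4:**
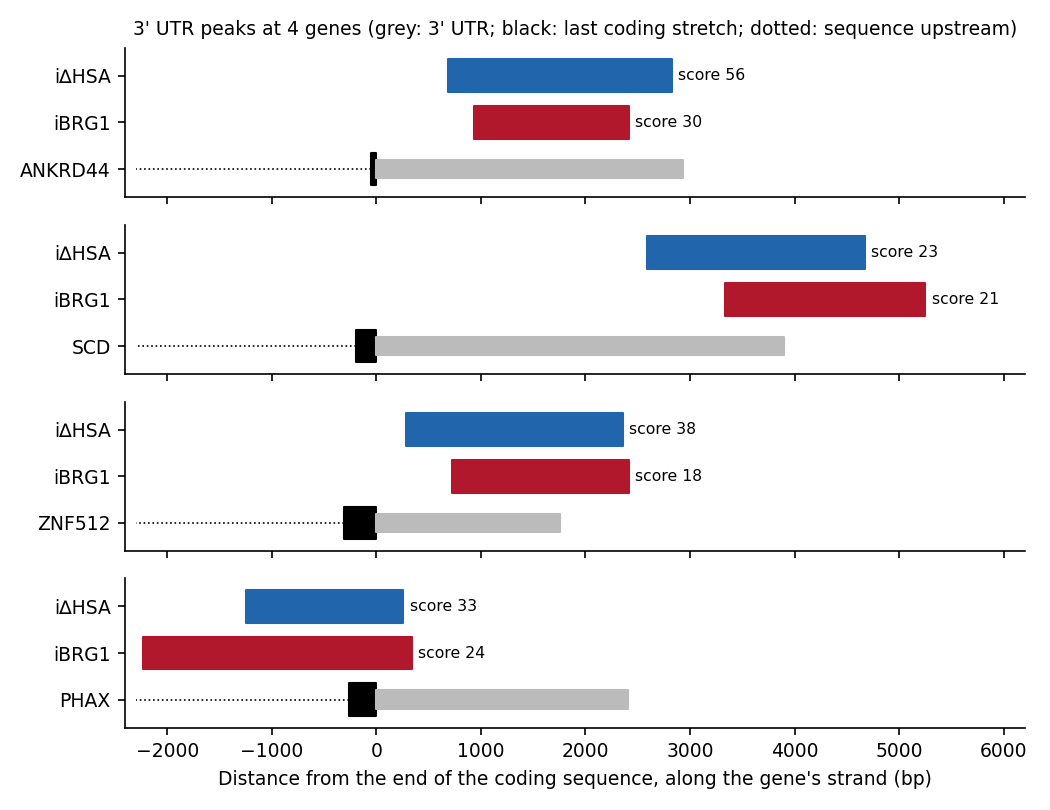
Peaks of iBRG1 (red) and i∆HSA (blue) at ANKRD44, SCD, ZNF512 and PHAX, with distance in bp from the end of the coding sequence along the gene's strand on the x axis. Grey bars are the 3' UTR of the assigned transcript, black bars its last coding stretch, dotted lines the sequence upstream, and the number beside each peak its deposited score; in SCD and ZNF512 both peaks run past the end of the 3' UTR.

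Motifs were counted within 100 bp of the midpoint, on both strands, for 11 patterns in each list, and compared with all other peaks more than 1 kb from every start. The AP-1 letters TGACTCA or TGAGTCA were in 46 of 550 iBRG1 peaks (8.36%, 6.33 to 11.0) and in 9.53% of the 18873 others (odds ratio 0.866, 0.624 to 1.18, Fisher's exact test with Benjamini-Hochberg adjustment over 22 tests, adjusted p = 0.833). In i∆HSA they were in 39 of 566 (6.89%, 5.08 to 9.28) and in 6.56% of the 19310 others (odds ratio 1.05, 0.737 to 1.47, exact test, adjusted p = 1.0). The share in 3' UTR peaks was therefore not distinguishable from that of other distal peaks.

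Against equally wide windows 2 kb away on both sides of each peak, the AP-1 letters were more frequent at the centre. In iBRG1 they were in 46 of 550 centres and 29 of 1100 flanks (odds ratio 3.37, two-sided Fisher's exact test with Benjamini-Hochberg adjusted p = 5.34e-06). In i∆HSA they were in 39 of 566 centres and 33 of 1132 flanks (odds ratio 2.46, exact test, adjusted p = 0.00154). Each centre had flanks from its own peak, and this test treated all windows as independent and did not use that matching. Of the sites nearest to the midpoint and not on chromosome 8, 21 of 43 in iBRG1 and 19 of 36 in i∆HSA lay in the 3' UTR itself, and the others lay in the rest of the peak.

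The AP-1 letters went with sharing and with score. They were in 20 of 111 shared iBRG1 peaks (18.0%, 12.0 to 26.2) and 26 of 439 unshared ones (5.92%, 4.07 to 8.54). In i∆HSA they were in 21 of 112 shared (18.75%, 12.6 to 27.0) and 18 of 454 unshared peaks (3.96%, 2.52 to 6.18). By score, the share in iBRG1 was 5.78% up to 2, 6.61% at 3 to 4, 12.8% at 5 to 9 and 17.2% at 10 or more, and in i∆HSA 4.05%, 5.53%, 8.59% and 15.2%. Among the 99 pairs, 6 had the letters in both windows, 11 in the iBRG1 window alone and 14 in the i∆HSA window alone. Each window lay around the midpoint of its own peak, and the midpoints of a pair were a median of 396 bp apart. The windows of most pairs therefore covered different sequence. These pair counts thus cannot tell whether a site lay in the peak of a single list. How much of the link with sharing goes with score was not tested.

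The poly(A) signal AATAAA was the single pattern of the 22 tests to pass. It was in 238 of 566 i∆HSA 3' UTR peaks (42.0%) and in 35.6% of the other i∆HSA peaks away from starts (odds ratio 1.31, 1.10 to 1.56, exact test with Benjamini-Hochberg adjusted p = 0.0468). In iBRG1 it was in 36.9% and 36.7% (odds ratio 1.01, 0.843 to 1.21, exact test, adjusted p = 1.0). Whether the lists differ in this was not tested. The i∆HSA odds ratio was higher when the midpoint had to lie in a 3' UTR (1.68, exact test, adjusted p = 8.98e-05) or at least 50% of the width did (1.60, adjusted p = 0.00110). The call was lost among peaks with at least 25% GC (odds ratio 1.28, exact test, adjusted p = 0.0630) and in windows of 250 bp to each side (1.09, adjusted p = 0.645). Against the flanking windows AATAAA was more frequent at the centre in both lists, with 203 of 550 against 300 of 1100 in iBRG1 (odds ratio 1.56, exact test, adjusted p = 0.000522) and 238 of 566 against 307 of 1132 in i∆HSA (odds ratio 1.95, adjusted p = 1.83e-08). Here too the flank test did not use the matching of each centre with its own flanks. The peaks were chosen for overlapping a 3' UTR, which ends downstream of a poly(A) signal. These AATAAA comparisons therefore cannot separate a trait of the peaks from the sequence that the rule selects.

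The TEAD pattern CATTCC preceded by A or G, the site of the factors that YAP and TAZ bind, was in 4.91% of iBRG1 3' UTR peaks and 6.89% of the others (odds ratio 0.697, exact test, adjusted p = 0.315), and in 6.18% and 5.12% in i∆HSA (odds ratio 1.22, adjusted p = 0.687). The SP/KLF pattern GGGGCGGGG was in 5 peaks of each list, with odds ratios of 5.08 (1.55 to 13.1, adjusted p = 0.0511) and 4.29 (1.32 to 10.9, adjusted p = 0.0645) in Fisher's exact tests with Benjamini-Hochberg adjustment. The CTCF pattern was in 0 of 550 and 2 of 566 peaks.

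The other 6 patterns did not pass in either list. They were ETS (CCGGAA followed by A or G), in 4 and 5 peaks, NRF1, in 2 and 0, NFY (CCAAT followed by C or G and then A or G), in 36 and 31, CRE (TGACGTCA), in 1 and 0, the E-box CACGTG, in 14 and 11, and RUNX (TGTGGTTT), in 9 and 6. The most frequent of them, NFY, was in 6.55% of iBRG1 3' UTR peaks and 5.60% of the others, and in 5.48% and 5.76% in i∆HSA. None of these windows was checked for the same bases counting towards more than one pattern.

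At the level of genes, 17973 protein-coding genes had 3' UTR sequence more than 1 kb from every start. A peak was found in the 3' UTR of 554 of them in iBRG1, or 3.08%, and of 575 in i∆HSA, or 3.2%. Both lists had a peak in 116 genes, or 0.645%, and these were 20.9% of the genes with an iBRG1 peak and 20.2% of those with an i∆HSA peak. In all, 1013 genes had a peak in either list. Nearly all had a single peak, 544 of 554 and 568 of 575.

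Genes with longer 3' UTRs had a peak more often. Of genes with under 500 bp of 3' UTR, 0.842% had an iBRG1 and 1.18% an i∆HSA peak. The share was 1.59% and 2.19% from 500 bp, 2.61% and 3.33% from 1000 bp, 4.68% and 4.35% from 2000 bp, and 8.53% (7.20 to 10.1) and 6.81% (5.63 to 8.23) from 5000 bp up. The median longest 3' UTR was 1349 bp over all the genes, 2856.5 bp over those with an iBRG1 peak and 2254.0 bp over those with an i∆HSA peak. A longer target gives more room for a peak, so the median longest 3' UTR of a gene group is given with its counts.

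**Figure D5:**
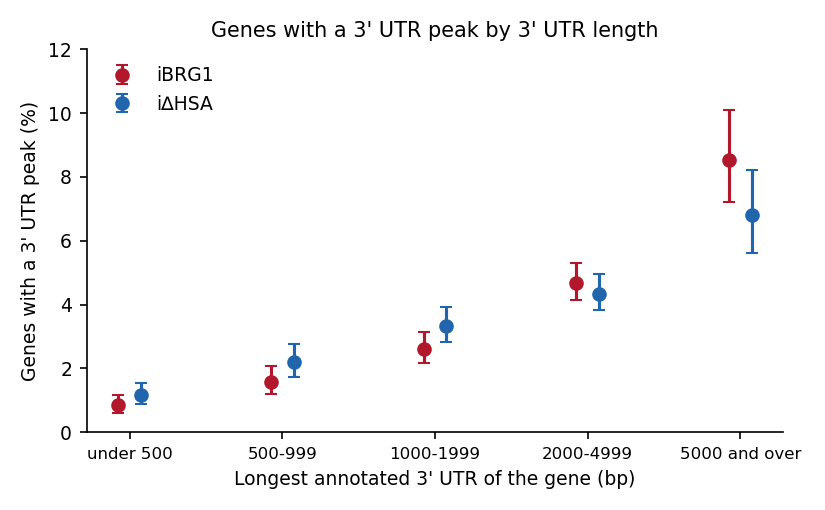
Share of protein-coding genes, in percent, with a 3' UTR peak of iBRG1 (red) or i∆HSA (blue), by the length of the gene's longest annotated 3' UTR in bp. Points are shares with 95% Wilson intervals; both lists rise from about 1% under 500 bp to 8.53% and 6.81% at 5000 bp and over.

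The genes with the most peaks over both lists were LIMS1, which encodes the focal adhesion adaptor PINCH1, with 3 in iBRG1 and 1 in i∆HSA, followed by 6 genes with 3 peaks. The LIMS1 peaks with the highest scores overlapped, with 9 in iBRG1 at chr2:109278173-109279480 and 13 in i∆HSA at chr2:109278433-109279928. LIMS1 has close copies such as LIMS3, and reads could be split between them. Those 6 were ANKRD44, HDAC8, a histone deacetylase, MPP7, a scaffold of cell junctions, MTHFD1L, a mitochondrial enzyme of folate metabolism, PLB1, a phospholipase, and RAG1, a subunit of the V(D)J recombinase. The 3 HDAC8 peaks had scores of 1 to 3 and none was shared.

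None of the loci shown by the study had a peak in its 3' UTR. SRPX2, MYOF, CSF1 and SPARC had 0 peaks of either list there, and so did SMARCA4, the gene of BRG1 itself. CRYAB had no 3' UTR sequence more than 1 kb from a start. Over all genes 3.08% had a 3' UTR peak in iBRG1 and 3.2% in i∆HSA, so a count of 0 among so few genes says little.

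Genes of the SWI/SNF complex had 2 of 29 members with an iBRG1 peak and 1 of 29 with an i∆HSA peak. They were DPF3, a reader of histone acetylation (score 13, chr14:73074734-73075821), ARID1B (score 4, chr6:157391312-157393469) and ARID1A (i∆HSA, score 3, chr1:27107732-27108741), the last 2 being alternative DNA-binding subunits. Factors of mRNA 3' end processing had 3 of 21 in each list. CPSF2 was in both, at places that did not overlap, with the iBRG1 peak at the coding end and the i∆HSA peak (score 6, chr14:92630962-92633117) inside the 3' UTR. The others were CPSF6 (score 4) and PCF11 (score 1) in iBRG1 and WDR33 (score 3) and PPP1CB (score 4) in i∆HSA. The median longest 3' UTR was 2714 bp in the SWI/SNF list and 2216 bp in the 3' end processing list. With 21 to 29 genes, 1 gene moves a share by several percentage points, and these counts stand as a description beside the 3.08% and 3.2% over all genes.

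Messages with AU-rich elements, which mark short-lived mRNAs of cytokines and early response genes, had 2 of 30 members with a peak in each list and none with a peak in both. MYC (score 5, chr8:128753408-128756618) and the phosphatase gene DUSP1 (score 8, chr5:172192040-172195227) were in iBRG1, and the cytokine genes IL6 (score 13, chr7:22771299-22772438) and CXCL8 (score 2, chr4:74608716-74609296) in i∆HSA. The senescence and secretory list shares IL6 and CXCL8 with it and had 0 of 27 in iBRG1 and 3 of 27 in i∆HSA, the remaining one being RB1 (score 2). The median longest 3' UTR was 1185 bp in the AU-rich list and 1350.0 bp in the senescence list. Beside these counts, 3.08% of all genes had an iBRG1 peak, 3.2% an i∆HSA peak and 0.645% a peak in both lists.

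Genes of AP-1 factors had 0 of 18 in iBRG1 and 2 of 18 in i∆HSA, JDP2 and MAFF with a score of 2 each. The TEAD, YAP and TAZ list had AMOTL1 (score 3) in iBRG1 and, in i∆HSA, CCN1 (score 9, chr1:86048935-86051740) and ANKRD1 (score 5, chr10:92669466-92673542), which are both known YAP targets, or 1 and 2 of 18. Collagens had 1 of 37 (COL14A1, score 3) and 2 of 37 (COL4A4, score 5, and COL11A2, score 2). Other matrix proteins, proteases and inhibitors had 2 of 38 in iBRG1 (SERPINE2 with a score of 4 and decorin, DCN, with 2) and 0 of 38 in i∆HSA. Over the AU-rich, senescence, AP-1, TEAD, collagen and matrix lists, no gene reported here had a peak in both lists of peaks. Over all genes 0.645% had one in both, so a count of 0 over gene lists of this size says little. The counts stand beside 3.08% and 3.2% over all genes, and several, such as those of the collagens, are near that background. The median longest 3' UTR was 1833 bp in the AP-1 list, 2067 bp in the TEAD list, 1325 bp in the collagens and 1563 bp in the matrix list.

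Chromosome 19 carried more of the i∆HSA than of the iBRG1 3' UTR peaks, 37 of 566 (6.54%) against 18 of 550 (3.27%). The odds ratio was 2.07 (1.13 to 3.91, Fisher's exact test p = 0.0127), and after Benjamini-Hochberg adjustment over 23 chromosomes it was p = 0.291. None of the chromosomes passed, and 3 had an unadjusted p under 0.05, namely 2, 7 and 19. Over all peaks of the lists, chromosome 19 held 2.28% in iBRG1 and 4.13% in i∆HSA, a lean in the same direction.

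The chromosome 19 difference lay mainly in zinc finger genes, the clustered ZNF and ZFP genes that mostly encode KRAB repressors. They were the target of 5 iBRG1 peaks (0.909%) and 19 i∆HSA peaks (3.36%), with an odds ratio of 3.79 (1.35 to 13.05, Fisher's exact test p = 0.00619). The other genes of the chromosome had 13 and 18 peaks. This set was tested because the lean of chromosome 19 over all peaks was already known, so the p is not independent evidence. Of the 241 such genes with 3' UTR sequence away from starts, 5 (2.07%) and 19 (7.88%) had a peak, against 3.08% and 3.2% over all genes. Their median longest 3' UTR was 2117 bp, against 1349 bp over all genes.

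Most zinc finger peaks had low scores, as did the 3' UTR peaks as a whole, with medians of 2 in iBRG1 and 3 in i∆HSA. Scores of the zinc finger peaks ran from 1 to 13 in iBRG1 and from 1 to 9 in i∆HSA, with a median of 3 in both. ZNF582 (scores 10 and 9) and ZNF714 (13 and 8) had a peak in both lists. Among peaks with a score of at least 5, 2 of 152 and 5 of 194 remained, and the odds ratio was 1.98 (Fisher's exact test p = 0.473). The odds ratio was 5.74 by midpoint, 5.65 with at least 50% of the width in a 3' UTR, 6.13 with canonical transcripts and 7.09 more than 3 kb from starts, each of which rested on 2 iBRG1 peaks. These genes share long stretches of similar sequence, and how reads matching several places were treated is not given in the sources used here.

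The limit of 1 kb from starts shaped the class. In all, 847 iBRG1 and 926 i∆HSA peaks overlapped a 3' UTR, and 297 (35.1%) and 360 (38.9%) of them were left out as close to a start. Inside the limit by up to 500 bp were 28 and 38 peaks with median scores of 3 and 4, of which 17.9% and 13.2% were shared. Outside it by under 500 bp were 42 and 48 peaks with median scores of 3 and 3.5, of which 19.05% and 25.0% were shared. The highest-scoring peak left out was at SMG1 in both lists, with scores of 35 and 124.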

How the data were processed

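CUT&RUN with anti-V5 was done in 4 samples, 2 replicates each of iBRG1 and i∆HSA. The authors trimmed reads with Cutadapt, aligned them with Bowtie2 to hg19, took out duplicates by Picard and ran MACS2 (version 2.2 in the submitters' processing notes) with a p cutoff of 0.0001, then removed peaks of negative controls. Their methods also name a minimum score of 5, but the deposited lists hold lower scores. Each of the 2 deposited lists gives positions and a score per peak. How replicates were combined is not given in the sources used here.

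Peaks were placed with GENCODE release 44 on GRCh37 in the order near a start (within 1 kb), 3' UTR, coding exon, intron and intergenic. Shares carry 95% Wilson intervals, and two-sided Fisher's exact tests compared groups of peaks, with Benjamini-Hochberg adjustment (Python 3.11.15, scipy 1.17.1, pysam 0.24.0). The code for placing peaks, overlaps, Fisher's exact test and the adjustment was tested on simulated data, and the motif search was not. Motifs were searched on both strands within 100 bp of each midpoint. A printed AP-1 sequence is centred on the site nearest the midpoint, and chromosome 8 was left out of printing. Peaks of a list share their libraries and are not replicates, so a p describes the lists.

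Genes named were the 10 highest-scoring peaks of each list, the 10 pairs with the highest lower score, the 5 genes with the most peaks and the 2 tied with them, up to 4 members of each gene list and the loci the study shows. An item that these rules named is not reported here, and the gene lists were counted without it. The genes of the printed sequences were chosen after their values were seen. The members and lists were chosen with earlier results of these data known. Alternatives were other ways of placing a peak, canonical transcripts, 3 kb from starts, scores of at least 5 or 10, at least 25% GC, 50% overlap of both peaks, wider windows, flanking windows and leaving out chromosome 19.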

Additional observations from a re-analysis of the deposited data

How the results depend on the processing

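The absence of a call for sharing held under every alternative tried, with 0 of 6 comparisons passing in each. The odds ratio of the 3' UTR share turned to 1.04 with canonical transcripts and 1.02 with at least 25% GC, and passed at 0.800 with scores of at least 5. For scores, 3 comparisons passed when the midpoint or at least 50% of the width had to lie in a 3' UTR, 1 with canonical transcripts and 2 with a cutoff of 10. For motifs, 3 passed with canonical transcripts, 0 with at least 25% GC, 2 with 250 bp windows and 4 against flanks. The odds ratio of chromosome 19 zinc finger genes was 1.98 with scores of at least 5, and no longer passed, and ranged up to 7.09 elsewhere, past the threshold. Genes with a peak in iBRG1, i∆HSA and both numbered 339, 335 and 52 by midpoint, 321, 323 and 49 by 50% of the width, and 156, 198 and 48 with scores of at least 5.

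Odds ratios of single comparisons that crossed 1, none of them past the threshold before, were as follows. For sharing against coding exons, introns and intergenic peaks, iBRG1 gave 0.750, 0.828 and 0.933 by midpoint, 0.742, 0.816 and 0.920 by 50% of the width, and 0.918, 0.924 and 0.927 with scores of at least 5, and 0.973 against coding exons with canonical transcripts. The i∆HSA value against introns was 0.891, 0.865, 0.954 and 0.946 in the same settings. For scores in iBRG1 against coding exons the values were 0.875 by midpoint, 0.868 by 50% of the width, 0.909 at 3 kb and 0.998 with at least 25% GC, and 1.06 against introns with canonical transcripts. The AP-1 odds ratio in i∆HSA was 0.823 by midpoint, 0.814 by 50% of the width and 0.977 with 250 bp windows. In iBRG1 it was 3.37 against flanks, which are sequence beside the same peaks and not other peaks. That value answers another question and is not a shift of the same comparison. The iBRG1 poly(A) signal gave 0.977 at 3 kb and 0.941 with 250 bp windows. The cause of these shifts was not tested. The remaining alternatives, 138 in number, changed neither direction nor call or, for counts, stayed within 1.5 times.

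No paired analysis was possible because no column carries a replicate, which also barred leaving out a replicate. The lists hold no read counts, so depth was not weighed.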
